A study of Homo sapiens with 8 samples.

Results

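The conjugation enzymes of Hep3B cells were described across 4 conditions by RNA-seq. They were chosen by gene symbol: the UDP-glucuronosyltransferases (UGT1, UGT2 and UGT8), the cytosolic sulfotransferases (SULT), the soluble glutathione S-transferases (GST) and the microsomal enzymes MGST1, MGST2 and MGST3. The rule found 33 genes among the 16038 gene names of the table that holds Hep3B and SOX4-/- cells, and 31 among the 14953 of the table that holds control siRNA and STAT6 siRNA cells. UGT2B17 and SULT2B1 were listed only in the first table, and the pseudogenes GSTM2P1 and SULT1C2P1 were left out. The rule itself uses gene symbols. Every transcript listed summed to at least 10.0 over the 4 libraries of its table, so counts also decided which genes could be found. UGT2B17 and SULT2B1 reached this sum only through the SOX4-/- libraries.

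Hep3B is a human hepatocellular carcinoma line. The 4 groups were wild-type Hep3B, Hep3B labelled SOX4 knockout (SOX4-/-, made with CRISPR/Cas9), Hep3B with control siRNA and Hep3B with STAT6 siRNA, each with 2 libraries numbered 1 and 2. The labels give MEM with serum, non-essential amino acids and pyruvate for all groups. By the study's methods SOX4-/- cells were also kept in puromycin, an antibiotic not stated for the other groups, so the drug and the genotype cannot be told apart. RNA was taken with TRIzol for a stranded mRNA library. The study's methods give the SOX4-/- data as from a pair of knockout lines, and no label ties SOX4-/- libraries 1 and 2 to these lines or says that the libraries of another group came from separate cultures, so the p-values measure only the spread between these libraries. The estimated counts summed to 18484804 and 18123854 in Hep3B, 25353113 and 18924814 in SOX4-/-, 18096907 and 20272261 in control siRNA, and 16266282 and 22037721 in STAT6 siRNA cells.

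Conjugation makes lipophilic compounds soluble so that the liver and kidney can clear them. UGT enzymes, which sit in the endoplasmic reticulum, transfer glucuronic acid from UDP-glucuronate to bilirubin, bile acids, steroids and drugs. SULT enzymes transfer sulfate from PAPS, the activated form of sulfate, to phenols, catecholamines and hydroxysteroids. GST enzymes join glutathione to electrophiles, and the MGST enzymes of the membrane also act on leukotrienes and lipid peroxides. Hepatocytes are the main site of all these families, and several of the genes lie in tandem clusters of close copies, which makes short reads hard to assign among them.

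The labels were first checked on the targeted genes. SOX4 had 798.7 and 265.9 TMM-normalised CPM (counts scaled to library size) in Hep3B and 297.9 and 301.6 CPM in the libraries labelled SOX4 knockout. The groups did not separate, and a transcript can persist after an edit that destroys its reading frame, so this level does not check the label. STAT6 had 42.5 and 31.4 CPM with control siRNA and 9.92 and 5.98 CPM with STAT6 siRNA, so that both siRNA libraries lay below both controls (log2 fold change -2.22, SE 0.72, edgeR adjusted p = 1.00). Adjusted p-values throughout come from edgeR's quasi-likelihood fits, by the method of Benjamini and Hochberg over all genes tested.

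One property of the siRNA table has to be given before its results. Libraries numbered 1 and 2 of that table stood apart from each other in both conditions, and the side depended on the GC content of the transcript. Of the 15 members tested with a GC content of 35.6% to 46.7%, 13 were higher in library 2 of both conditions, and of the 14 with 50.2% to 57.8%, 13 were higher in library 1 of both. All 8 UGT genes tested were higher in library 2 of both conditions. In the table of Hep3B and SOX4-/- cells the groups did not share such a division: 4 of 16 low-GC members were higher in library 2 of both groups and 9 in library 1, against 4 and 5 of 14 high-GC members. Within SOX4-/- cells alone the sides were the reverse of the siRNA table, with 4 of 16 low-GC and 9 of 14 high-GC members higher in library 2, and in Hep3B 7 of 16 and 4 of 14 were. The part of this division in the SOX4-/- results was not tested. The boundary of 48% was chosen after the values were seen.

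**Figure D1:**
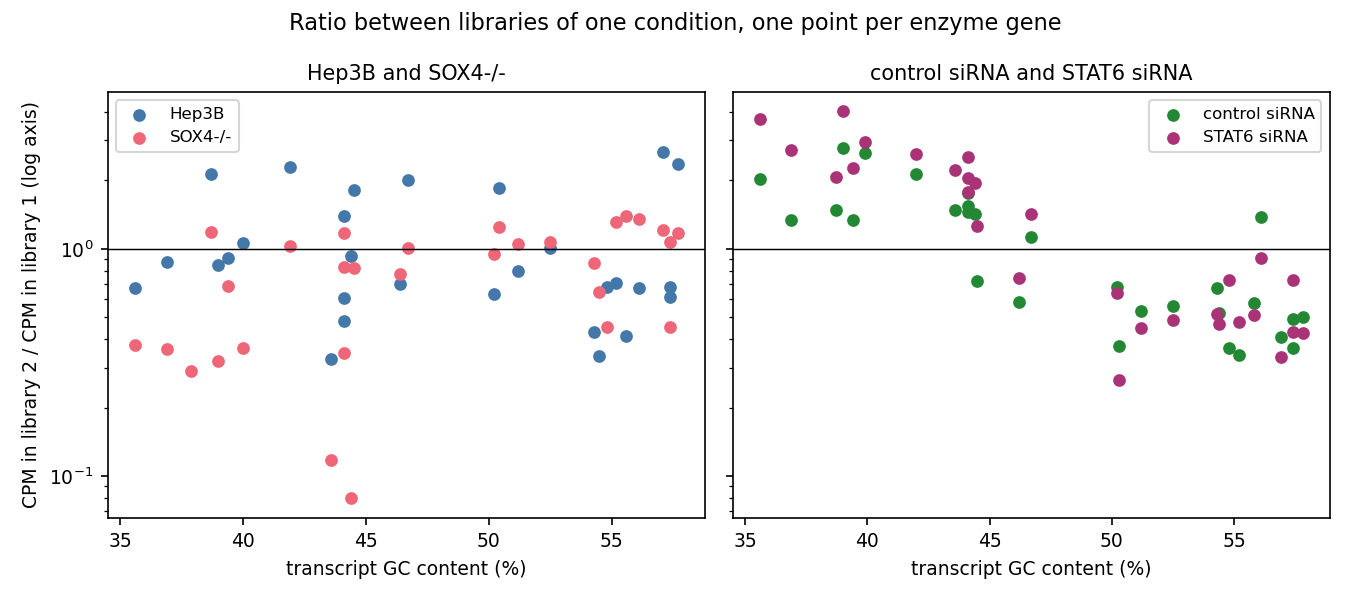
Ratio of the CPM in library 2 to that in library 1 of the same condition (log axis) against transcript GC content (%), one point per enzyme gene tested and condition, with Hep3B and SOX4-/- on the left and both siRNA conditions on the right. UGT2B11 in Hep3B is not drawn because library 1 had 0 CPM. On the right 13 of 15 members below 48% GC lie above the line in both conditions and 13 of 14 members with more GC lie below it in both, and on the left 4 of 16 SOX4-/- points below 48% GC and 9 of 14 with more lie above it.

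The UGT2 genes are shown first by sequence, because those of the chromosome 4 cluster include the largest rises of the enzymes in SOX4-/- cells. The 110 bases before the transcript start (RefSeq, GRCh38.p14) are printed 5′ to 3′ for UGT2B15 (chr4:68670653-68670762, minus strand), UGT2B10 (chr4:68815884-68815993, plus strand), UGT2B11 (chr4:69214749-69214858, minus strand), UGT2B7 (chr4:69096364-69096473, plus strand) and UGT2A3 (chr4:68951805-68951914, minus strand). Capitals mark a run of 18 letters in UGT2B15, UGT2B10 and UGT2B11, and its first 9 letters in UGT2B7 and UGT2A3.
UGT2B15: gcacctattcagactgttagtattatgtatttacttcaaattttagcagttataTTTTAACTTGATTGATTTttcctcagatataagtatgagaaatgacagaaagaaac
UGT2B10: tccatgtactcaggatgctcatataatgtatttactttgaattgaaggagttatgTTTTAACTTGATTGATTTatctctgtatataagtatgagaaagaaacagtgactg
UGT2B11: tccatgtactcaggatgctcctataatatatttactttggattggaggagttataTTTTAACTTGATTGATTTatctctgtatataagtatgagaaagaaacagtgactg
UGT2B7: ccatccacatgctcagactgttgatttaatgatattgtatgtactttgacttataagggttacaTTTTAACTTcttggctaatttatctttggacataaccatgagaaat
UGT2A3: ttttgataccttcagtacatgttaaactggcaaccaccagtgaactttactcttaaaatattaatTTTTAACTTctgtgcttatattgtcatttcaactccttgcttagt

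UGT2B15, UGT2B10 and UGT2B11 held the same run of 18 letters, TTTTAACTTGATTGATTT, starting 56, 55 and 55 bases before the start. Its first 9 letters, TTTTAACTT, were also in UGT2B7 and UGT2A3, 46 and 45 bases before the start. The long run was taken as the longest that UGT2B15, UGT2B10 and UGT2B11 share, so its presence in these 3 was built in. The shorter run was taken from the UGT2B genes, so only its match in UGT2A3 was not built in. On either strand of the same 110 bases, the long run was in 3 of 35116 RefSeq promoters (0.00854%), those it was taken from. The short run, which the long run contains, was in 70 (0.199%). Among the 26 members with a RefSeq promoter the short run was in these 5 alone, and it was not found in SULT1E1, which lies beside the cluster. UGT2B4 and UGT2B17 had no entry. The stretches of UGT2B10 and UGT2B11 were identical at 105 of 110 bases. These matches describe letters and not binding.

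Most UGT2 genes tested rose in SOX4-/- cells, as did genes of the theta, mu and omega GST classes. Of 30 conjugation enzymes tested, 9 had a higher level in SOX4-/- than in Hep3B cells at an adjusted p below 0.05 and 0 a lower one, with edgeR's quasi-likelihood test on 2 libraries a group. Those higher were UGT2B15, UGT2B11, UGT2A3, UGT2B4, SULT1E1, GSTT2B, GSTT2, GSTM3 and GSTO1. Of all 14415 genes tested 5.89% were called, 4.50% higher and 1.39% lower. Both SOX4-/- libraries lay above both Hep3B libraries for 19 of the 30 enzymes, against 30.6% of all genes, and below them for 3, of which SULT1A3 and SULT1A4 hold identical values, against 27.4%. The median log2 fold change was 1.35 over the enzymes and 0.01 over all genes. The count rested on both SOX4-/- libraries: without library 1 it was 2 (UGT2B15 and GSTT2B) and without library 2 it was 1 (UGT2B15), while 0.493% and 0.140% of all genes were called, in fits that take the lone library to vary like the others. With GC and length offsets and the library number as a block it was also 2 (UGT2B15 and UGT2A3), with 0.295% of all genes called. The log2 fold changes of the other 7 were then 5.31 for UGT2B11, 3.61 for GSTT2B, 3.34 for SULT1E1, 2.92 for UGT2B4, 2.18 for GSTT2, 1.58 for GSTM3 and 1.30 for GSTO1. In bulk RNA a change in the number of cells that express a gene and a change in RNA per cell cannot be told apart.

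**Figure D2:**
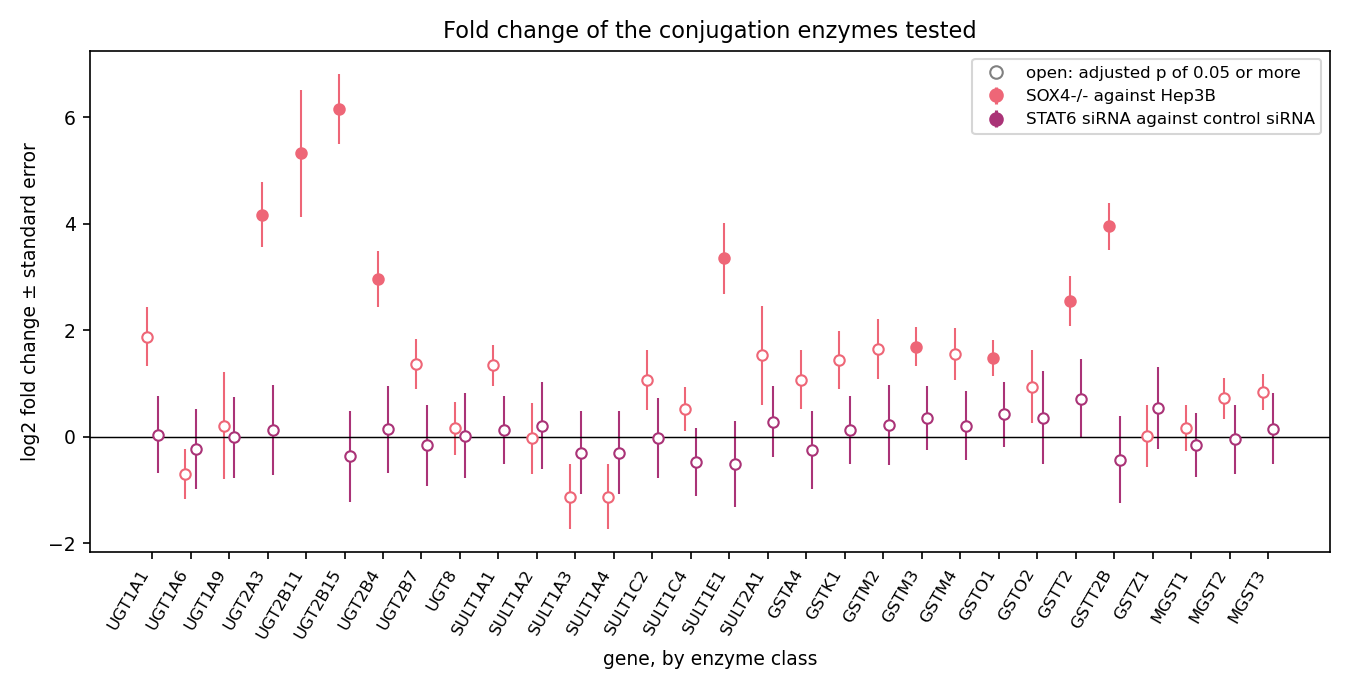
Log2 fold change with its standard error for each enzyme tested, in order of enzyme class, for SOX4-/- against Hep3B and for STAT6 siRNA against control siRNA (2 libraries a group). Filled points have an adjusted p below 0.05: 9 in the SOX4-/- comparison, all above 0, and 0 in the siRNA comparison.

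UGT2B15, which glucuronidates androgens and many phenolic drugs, had the largest rise of the enzymes. It had 2.72 and 2.32 CPM in Hep3B (48 and 44 counts) and 274.1 and 87.9 CPM in SOX4-/- cells (7237 and 1599 counts). The ratio of the means was 71.7 (log2 fold change 6.16, SE 0.66, adjusted p = 0.0104), and the fold change was the 65th largest rise of the 14415 genes. The SOX4-/- libraries differed between themselves, library 1 being the higher, but both were far above Hep3B.

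UGT2B4, an enzyme for bile acids, had 10.8 and 11.4 CPM in Hep3B and 126.6 and 46.4 CPM in SOX4-/- cells (log2 fold change 2.96, SE 0.53, adjusted p = 0.0275). UGT2A3, which also glucuronidates bile acids, had 2.27 and 1.53 CPM against 49.8 and 18.8 CPM (log2 fold change 4.17, SE 0.61, adjusted p = 0.0188). UGT2B11 had 0 and 5 counts in Hep3B and 230 and 46 counts in SOX4-/- cells (fitted log2 fold change 5.32, SE 1.19, adjusted p = 0.0447). It passed the filter on low counts only through the SOX4-/- libraries and was not tested at a minimum of 10 counts in all libraries. Its fold is not fixed by so few counts, with fitted values of 4.33 and 9.87 without Hep3B library 1 or 2, and without this gene 8 enzymes were called. In each of these the SOX4-/- libraries were both above Hep3B and library 1 was the higher, as for UGT2B15.

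The other UGT2 genes differed less or were barely counted. UGT2B7, the main glucuronidating enzyme for morphine, had 5.11 and 4.64 CPM in Hep3B and 14.9 and 10.2 CPM in SOX4-/- cells. The groups did not overlap but the difference missed the threshold (log2 fold change 1.37, SE 0.47, adjusted p = 0.121). UGT2B17, an androgen enzyme close to UGT2B15, had 0 and 1 counts against 39 and 9, and UGT2B10, an enzyme for nicotine, had 0 and 3 against 6 and 4; both were too low to be tested.

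These genes lie side by side on chromosome 4. Along GRCh38.p14 the order is UGT2B17, UGT2B15 (68646597 to 68670652), UGT2B10, UGT2A3 (68928463 to 68951804), UGT2B7, UGT2B11, UGT2B4 (69480165 to 69526014) and SULT1E1 (69821122 to 69860145). No gene that flanks the row on the UGT2B17 side was called. Both SOX4-/- libraries lay below both Hep3B libraries for UBA6, UBA6-AS1 and YTHDC1 there, as for 27.4% of all genes. UBA6 and UBA6-AS1 had log2 fold changes of -0.78 and -1.01 (adjusted p = 0.191 and 0.136). YTHDC1, an RNA-binding protein gene before UGT2B17, had 134.8 and 175.3 CPM in Hep3B and 96.0 and 77.4 CPM in SOX4-/- cells (log2 fold change -0.84, adjusted p = 0.177). On the other side UTP3 and GRSF1 had log2 fold changes of -0.44 and -0.11 (adjusted p = 0.511 and 0.869). ENAM, the gene for an enamel protein, lies between SULT1E1 and UTP3 and was called higher, with 3 and 5 counts in Hep3B and 191 and 34 in SOX4-/- cells (fitted log2 fold change 4.35, SE 0.93, adjusted p = 0.0414). It too passed the filter only through the SOX4-/- libraries. ODAM and FDCSP, between the same genes, had 5 and 2 against 34 and 9 counts, and 0 and 0 against 5 and 29 counts. All 3 had more counts in both SOX4-/- libraries than in either Hep3B library, at low counts in Hep3B. Their Hep3B counts alone fell short of the sum of 10.0 that every listed transcript reached. The listing thus favoured this direction, which is no test of the neighbours.

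None of the 3 UGT1A genes was called by edgeR with the libraries complete. DESeq2 called UGT1A1 higher in SOX4-/- cells (log2 fold change 1.83, DESeq2 adjusted p = 0.0178). UGT1A1, which conjugates bilirubin, had 1.82 and 3.64 CPM in Hep3B and 9.96 and 10.1 CPM in SOX4-/- cells, with no overlap of the groups (log2 fold change 1.88, SE 0.55, adjusted p = 0.0864). UGT1A6, an enzyme for small phenols, had 8.40 and 11.7 CPM against 5.68 and 6.71 CPM (log2 fold change -0.70, SE 0.47, adjusted p = 0.382). UGT1A9 had 1.36 and 1.27 CPM against 2.76 and 0.220 CPM. Neither difference passed the test. The 3 genes have their own first exon and share all later exons, and 48.8%, 58.6% and 61.6% of the 100-base windows of UGT1A1, UGT1A6 and UGT1A9 occur in other genes of the locus, so their separate values depend on how shared reads were divided. Summed over the locus the level was 11.6 and 16.6 CPM in Hep3B and 18.4 and 17.0 CPM in SOX4-/- cells (log2 fold change 0.33, SE 0.40, adjusted p = 0.641). UGT8, which makes galactosylceramide and not glucuronides, had 6.75 and 15.5 CPM against 12.2 and 12.6 CPM, within the spread of Hep3B.

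Of 7 sulfotransferases tested, with the identical SULT1A3 and SULT1A4 counted once, 1 rose in SOX4-/- cells, where 4.50% of all genes did. SULT1E1, which sulfates estrogens, had 1.14 and 1.00 CPM in Hep3B (20 and 19 counts) and 16.0 and 5.83 CPM in SOX4-/- cells (422 and 106 counts), a log2 fold change of 3.35 (SE 0.67, adjusted p = 0.0362). Of its 100-base windows 18.4% also occur in an overlapping annotated transcript, AC108941.2. SULT1A1, the main phenol sulfotransferase of liver, had 20.6 and 12.7 CPM against 40.7 and 43.7 CPM. Its groups did not overlap, but the adjusted p was 0.0851 (log2 fold change 1.34, SE 0.39).

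SULT2A1, the hydroxysteroid and bile acid sulfotransferase, had 11.4 and 3.75 CPM in Hep3B and 39.1 and 4.62 CPM in SOX4-/- cells. The excess was in SOX4-/- library 1: the log2 fold change was 1.53 (SE 0.93, adjusted p = 0.337) and -0.70 without that library. SULT1C4, a fetal form and the most abundant sulfotransferase by TPM in Hep3B, had 116.3 and 56.1 CPM against 134.8 and 112.3 CPM (log2 fold change 0.52, SE 0.42, adjusted p = 0.469). SULT1C2 had 15.1 and 9.18 CPM against 37.4 and 13.0 CPM, and SULT2B1, which sulfates cholesterol, had 0 and 0 against 8 and 5 counts and was not tested.

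SULT1A3 and SULT1A4, which sulfate dopamine, cannot be told apart here. The genes lie at chr16:30199255-30204310 and chr16:29459913-29464966, their 300-base promoters are identical at 300 of 300 bases, and 96.7% and 99.1% of their 100-base windows occur in other transcripts, mainly in each other. The deposited values of the pair were the same in every library, so they count as 1 measurement. Each had 6.92 and 4.69 CPM in Hep3B and 3.64 and 1.65 CPM in SOX4-/- cells (log2 fold change -1.13, SE 0.61, adjusted p = 0.286), and summed they had 13.8 and 9.39 CPM against 7.27 and 3.30 CPM. With the pair counted once, 2 members had both SOX4-/- libraries below Hep3B, this pair and UGT1A6.

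The study's list of co-regulated genes holds SULT1A1, SULT1A2, SULT1A3 and UGT1A1 among these enzymes. With all libraries of a table none of the 4 was called by edgeR in either comparison, whereas DESeq2 called UGT1A1 (adjusted p = 0.0178) and SULT1A1 (adjusted p = 0.0315) higher in SOX4-/- cells. Without Hep3B library 1 or 2 the edgeR log2 fold change was 1.67 and 1.03 for SULT1A1 and 1.40 and 2.46 for UGT1A1. SULT1A2 had 1.42 and 3.80 CPM in Hep3B and 2.31 and 2.80 CPM in SOX4-/- cells. The study chose the list by combining SOX4 and STAT6 binding data from Hep3B cells with expression in these samples, so it is not independent evidence of a direction. The binding data were not examined here.

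Of 13 glutathione transferases tested, 4 rose in SOX4-/- cells, where 4.50% of all genes did. These 4 include both GSTT2 and GSTT2B, between which shared reads are divided. With the GSTT2 pair and the mu genes each summed before the edgeR fit, the pair and GSTO1 were called. The mu sum was not (adjusted p = 0.0541). All 13 had a log2 fold change above 0, and 11 had both SOX4-/- libraries above both Hep3B libraries, as had 30.6% of all genes. The median was 1.44, against 1.88 over 9 UGT genes and 1.06 over 7 SULT genes tested, SULT1A3 and SULT1A4 counted once.

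The theta class, which acts on small organic halides and sulfate esters, had the largest median log2 fold change of the GST classes (3.25). GSTT2B had 3.29 and 2.32 CPM in Hep3B and 37.6 and 49.1 CPM in SOX4-/- cells, a ratio of means of 15.5 (log2 fold change 3.95, SE 0.44, adjusted p = 0.0104). GSTT2 had 4.09 and 2.74 CPM against 17.1 and 23.1 CPM (log2 fold change 2.55, SE 0.47, adjusted p = 0.0302). Here library 2 was the higher of the SOX4-/- libraries, the reverse of the UGT2 genes.

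The pair are inverted copies on chromosome 22, GSTT2B at 23957414 to 23961206 and GSTT2, which RefSeq calls a transcribed pseudogene, at 23980134 to 23983915. Of their 100-base windows 78.6% (GSTT2) and 78.5% (GSTT2B) are in the other gene, and 2 of the 4 GSTT2 transcripts held identical values in every library. As deposited, 3 of the 4 transcripts named GSTT2 are placed at the RefSeq position of GSTT2B, and the GSTT2B transcripts at both positions, so the division between the names is uncertain. The sum does not depend on it: 7.38 and 5.06 CPM in Hep3B and 54.7 and 72.2 CPM in SOX4-/- cells (log2 fold change 3.35, SE 0.41, adjusted p = 0.0144). With the UGT1A, UGT2B, SULT1A and GSTM genes and the GSTT2 pair each summed before the fit, 5 of 19 units and 5.80% of all units were called: UGT2B (log2 fold change 3.94, SE 0.56, adjusted p = 0.0187), the GSTT2 pair, UGT2A3, SULT1E1 and GSTO1. The sums also took in genes with no shared windows, such as UGT2B4, UGT2B7 and GSTM3.

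GSTO1, an omega enzyme that reduces dehydroascorbate and arsenic species, had 51.1 and 40.7 CPM in Hep3B and 125.3 and 131.1 CPM in SOX4-/- cells (log2 fold change 1.48, SE 0.34, adjusted p = 0.0475). GSTM3, of the mu class, had 45.1 and 28.4 CPM against 122.0 and 115.7 CPM (log2 fold change 1.69, SE 0.37, adjusted p = 0.0436). Both calls ended in the fit of all 8 libraries (adjusted p = 0.187 for GSTO1 and 0.108 for GSTM3) and without Hep3B library 2 (0.0715 and 0.0619), and that of GSTO1 also without a filter (0.0523) and with a minimum of 10 counts (0.0506). The neighbours of GSTM3 on chromosome 1 had like values that missed the threshold. GSTM4 had 25.5 and 10.5 CPM against 44.3 and 61.7 CPM (adjusted p = 0.100), and GSTM2 had 4.77 and 2.06 CPM against 11.5 and 10.0 CPM (adjusted p = 0.120). DESeq2 called both higher, and so did edgeR without Hep3B library 1. Of GSTM2's 100-base windows 30.9% occur in other mu genes, and the 3 mu genes summed gave a log2 fold change of 1.65 (SE 0.40, adjusted p = 0.0541).

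GSTK1, the kappa enzyme of mitochondria and peroxisomes, had 35.8 and 12.1 CPM in Hep3B and 79.1 and 51.0 CPM in SOX4-/- cells (log2 fold change 1.44, adjusted p = 0.148). Without Hep3B library 1 or 2 the value was 2.36 (adjusted p = 0.0108) and 0.86. GSTA4, which conjugates the lipid peroxidation product hydroxynonenal, had 2.44 and 4.43 CPM against 7.91 and 6.54 CPM (adjusted p = 0.259). Both had separate groups without a call. MGST1 had 82.9 and 177.0 CPM against 134.1 and 159.1 CPM, within the spread of Hep3B, and MGST3 had 19.9 and 20.0 CPM against 34.7 and 37.0 CPM (log2 fold change 0.84, SE 0.34, adjusted p = 0.174). GSTZ1, the zeta enzyme of tyrosine breakdown, had 3.23 and 7.65 CPM against 5.07 and 5.99 CPM, and its log2 fold change of 0.02 (SE 0.58) turned to -0.02 with median-of-ratios scaling.

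Levels were then compared between genes per length, as TPM (transcript abundance scaled to the same total in each library), computed here. In Hep3B libraries 1 and 2 MGST1 had 207 and 493 TPM, SULT1C4 143 and 76.7 TPM, GSTO1 120 and 106 TPM and GSTM3 65.8 and 46.2 TPM, whereas UGT2B15 had 2.99 and 2.84 TPM. Hep3B libraries 1 and 2 reversed the order of SULT1C4 and GSTO1, so these neighbours cannot be ranked. In SOX4-/- libraries 1 and 2 UGT2B15 reached 335 and 95.6 TPM, a level in library 1 near that of MGST1 (372 and 393 TPM) and GSTO1 (326 and 304 TPM). The UGT2 genes together made up 2.44% and 2.41% of the TPM of all members in Hep3B and 22.3% and 9.4% in SOX4-/- cells. All members summed to 929 and 1029 TPM in Hep3B and 2524 and 1873 TPM in SOX4-/- cells, a ratio of means of 2.25.

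The siRNA libraries, which were quantified in a table of their own, are set beside these as a description with no test. The UGT2 class had 22.7 and 24.8 TPM in Hep3B, 564 and 176 TPM in SOX4-/-, 12.5 and 31.9 TPM in control siRNA and 7.92 and 34.1 TPM in STAT6 siRNA cells. The theta class had 14.7 and 11.2 TPM, 123 and 145 TPM, 20.7 and 15.4 TPM, and 16.8 and 17.3 TPM in the same order. For these classes the SOX4-/- libraries stood above the other 6. This was not so for all classes: GSTO had 121 and 107 TPM in Hep3B and 329 and 306 TPM in SOX4-/- cells, but 508 and 361 TPM with control siRNA. SULT1A1 had 40.2 and 27.1 TPM in Hep3B, 87.8 and 84.0 TPM in SOX4-/- cells and 180 and 117 TPM with control siRNA. For GSTO1, which makes up nearly all of the omega sum, and for SULT1A1 the distance between Hep3B and control siRNA, which also differ in transfection, was thus larger than that between Hep3B and SOX4-/-.

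**Figure D3:**
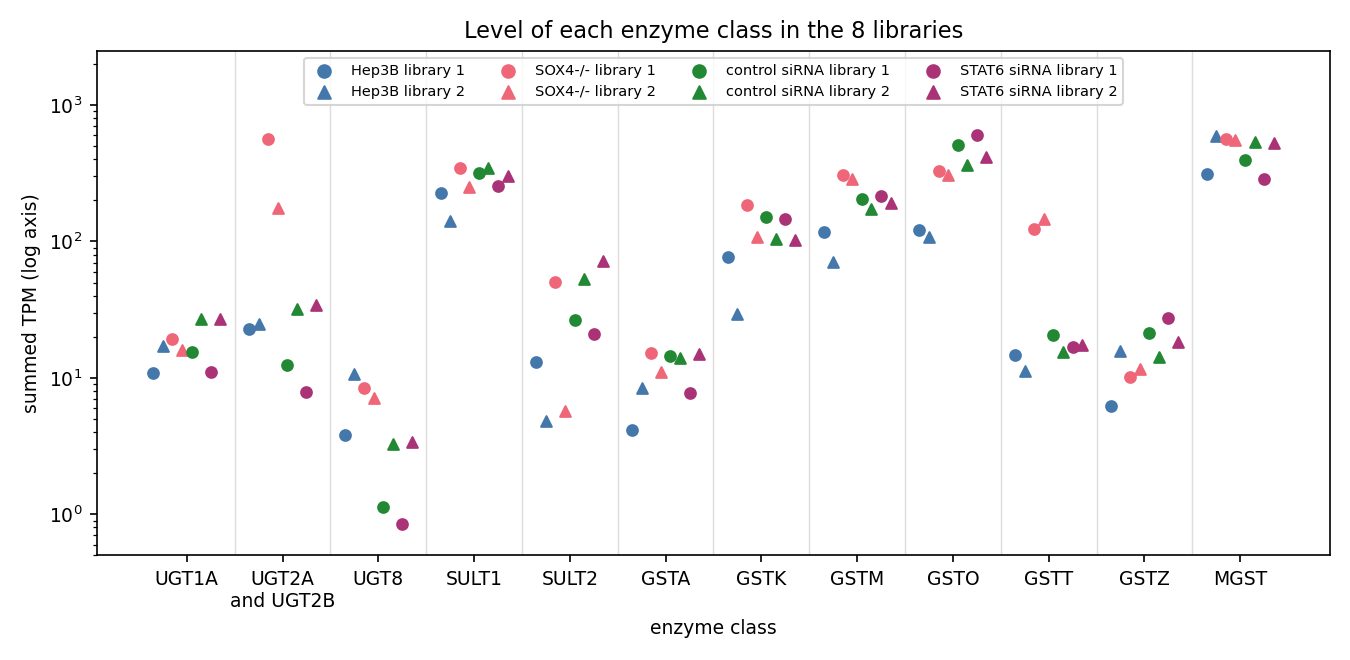
Summed TPM of each enzyme class (log axis) in the 8 libraries, circles for library 1 and triangles for library 2 of each condition. In the UGT2 class SOX4-/- cells have 564 and 176 TPM and in the GSTT class 123 and 145 TPM, above the other 6 libraries, while in the GSTO class the siRNA libraries (361 to 607 TPM) are the highest.

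None of the genes that supply the co-substrates was called higher. The counts of these and the next lists stand against 4.50% of all genes called higher and 1.39% called lower. Of 4 genes for UDP-glucuronate supply 1 fell: UGDH, which makes UDP-glucuronate from UDP-glucose, had 398.2 and 419.8 CPM in Hep3B and 99.2 and 94.6 CPM in SOX4-/- cells (log2 fold change -2.08, SE 0.36, adjusted p = 0.0256). Of 5 genes for PAPS supply 0 were called. PAPSS2, a PAPS synthase, had 24.2 and 11.9 CPM against 38.2 and 41.3 CPM (adjusted p = 0.149).

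Of 11 genes for glutathione supply and breakdown 3 fell and 0 rose. SLC7A11, the cystine importer, had 165.8 and 265.1 CPM in Hep3B and 24.2 and 37.4 CPM in SOX4-/- cells (log2 fold change -2.81, SE 0.42, adjusted p = 0.0200). CHAC1, which degrades glutathione, had 176.6 and 245.2 CPM against 44.9 and 57.2 CPM (log2 fold change -2.05, SE 0.37, adjusted p = 0.0276). GSR, which regenerates reduced glutathione, had 162.9 and 193.3 CPM against 48.4 and 71.6 CPM (log2 fold change -1.57, SE 0.36, adjusted p = 0.0494). The genes that fell thus act in import, breakdown and recycling. In 4 of the 11 both SOX4-/- libraries were above both Hep3B libraries, against 30.6% of all genes, among them GGT1, which cleaves extracellular glutathione (0.738 and 2.16 against 10.0 and 8.03 CPM, log2 fold change 2.63, adjusted p = 0.0588). The median log2 fold change of the 11 was 0.14.

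Of 5 genes listed for conjugate hydrolysis, the sulfatase activator SUMF1 among them, 3 rose and 0 fell. ARSA, a lysosomal sulfatase, had 12.7 and 6.22 CPM in Hep3B and 47.0 and 41.1 CPM in SOX4-/- cells (log2 fold change 2.22, SE 0.45, adjusted p = 0.0364). STS, which removes sulfate from steroids and so reverses the reaction of SULT1E1 and SULT2A1, had 9.14 and 9.02 CPM against 29.0 and 46.8 CPM (log2 fold change 2.06, SE 0.41, adjusted p = 0.0351). SUMF1, which activates sulfatases, had 30.5 and 33.7 CPM against 108.0 and 105.0 CPM (log2 fold change 1.73, SE 0.34, adjusted p = 0.0329). GUSB, which cleaves glucuronides, had separate groups (92.8 and 99.4 against 194.8 and 203.9 CPM) and an adjusted p of 0.0976.

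Of 6 genes for other conjugations 1 rose. BAAT, which joins bile acids to glycine or taurine, had 22.9 and 17.2 CPM in Hep3B and 230.7 and 134.3 CPM in SOX4-/- cells (log2 fold change 3.19, SE 0.42, adjusted p = 0.0152). SLC27A5, which activates bile acids for that step, had 0.681 and 1.00 CPM against 4.62 and 4.67 CPM (log2 fold change 2.45, SE 0.62, adjusted p = 0.0608), with both SOX4-/- libraries above both Hep3B libraries. The thiopurine methyltransferase TPMT and the acetyltransferases NAT1 and NAT2 had log2 fold changes of -0.24, -0.12 and 0.16 without a call. Of 11 transcription regulators of these enzymes 0 were called. HNF4A, a hepatocyte factor, had 193.5 and 168.4 CPM against 392.8 and 302.1 CPM (log2 fold change 0.94, adjusted p = 0.157), and CEBPB, another factor of liver genes, had 160.5 and 133.1 CPM against 40.1 and 89.6 CPM (log2 fold change -1.18, adjusted p = 0.146). The bile acid receptor gene NR1H4 had a log2 fold change of -1.36 with overlapping groups. Of 6 exporters of conjugates 0 were called, with 91.7 and 43.2 against 216.6 and 122.1 CPM for ABCC3 (adjusted p = 0.135) and 42.9 and 51.3 against 22.9 and 30.6 CPM for ABCC4 (adjusted p = 0.201). ABCG2 had a log2 fold change of 0.46.

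**Figure D4:**
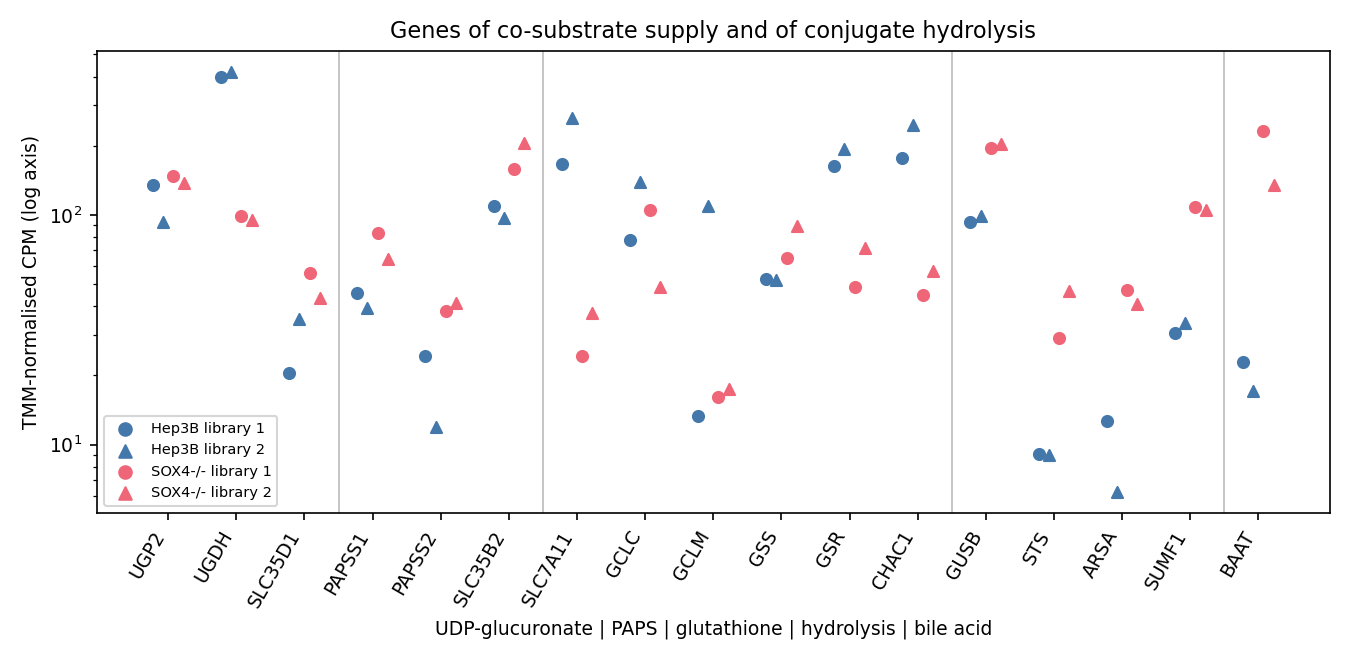
CPM (log axis) of genes of UDP-glucuronate, PAPS and glutathione supply, of conjugate hydrolysis and of bile acid conjugation in both Hep3B and both SOX4-/- libraries. UGDH, SLC7A11, GSR and CHAC1 are lower in both SOX4-/- libraries, and STS, ARSA, SUMF1 and BAAT are higher.

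Markers of hepatocytes moved with the enzymes. Of 14 markers, all measured, 4 rose and 0 fell: APOA1, APOH, TTR and FGB, with log2 fold changes of 2.40, 3.27, 3.14 and 2.53. Both SOX4-/- libraries were above both Hep3B libraries for 10 of 14, against 30.6% of all genes. Their sum was 18969.4 and 14535.6 CPM in Hep3B and 55880.9 and 35248.4 CPM in SOX4-/- cells, with library 1 the higher of the latter, as for the UGT2 genes. Its most abundant gene was ALB, the albumin gene (7457.5 and 6824.4 against 28444.8 and 13643.7 CPM, log2 fold change 1.56, adjusted p = 0.220).

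Markers of other cell types were also counted. Of 7 fibroblast markers 3 were listed and 2 called: LUM, a matrix proteoglycan, rose from 0.624 and 0.738 to 85.5 and 54.2 CPM (log2 fold change 6.67, adjusted p = 0.00384), and PDGFRB rose by 2.53 on the log2 scale (adjusted p = 0.0494). Their sum was 4.43 and 7.44 CPM in Hep3B and 101.2 and 77.5 CPM in SOX4-/- cells, where LUM was the most abundant. COL1A1 had 17 and 103 against 154 and 170 counts. Of 4 cholangiocyte markers tested 0 were called, with a sum of 966.3 and 688.1 against 1041.8 and 1208.7 CPM. EPCAM was the most abundant of them in Hep3B (394.3 and 399.3 CPM) and KRT19 in SOX4-/- cells (425.4 and 513.3 CPM). Of 3 leukocyte markers tested 0 were called. Their sum was 90.6 and 35.7 against 189.6 and 440.7 CPM, with LYZ the most abundant except in Hep3B library 2, where CD68 was. PTPRC, the defining leukocyte gene, had 0 and 4 against 6 and 1 counts. PECAM1 of endothelium had 10 and 1 against 12 and 14 counts. The part of these markers in the change of the enzymes was not tested.

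None of the enzymes was called with STAT6 siRNA. Of 29 enzymes tested 0 were called, with 0 at an unadjusted p below 0.05 and 0 by DESeq2. With GC and length offsets and the library number as a block, edgeR called 3 (GSTM3 and GSTO1 higher, SULT1C4 lower) of 29, against 354 of 13409 genes (2.64%). Of all 13554 genes 0.00% were called and 14 had an unadjusted p below 0.05, so the comparison made no call for any gene, STAT6 included, and cannot speak for the enzymes in particular. The median log2 fold change was 0.04 over the enzymes and -0.03 over all genes, and the values ran from -0.51 (SULT1E1) to 0.71 (GSTT2).

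GSTT2 was the only enzyme whose groups did not overlap, with 2.71 and 3.73 CPM in control and 5.51 and 5.03 CPM in STAT6 siRNA cells, against 2.74% of all genes with both libraries higher. With its copy GSTT2B, which had 9.38 and 3.20 against 6.32 and 3.01 CPM, the sum was 12.1 and 6.93 against 11.8 and 8.05 CPM, which overlap. No enzyme had both STAT6 siRNA libraries below both controls, against 5.26% of all genes.

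In the siRNA table the libraries of one condition often lay further apart than the conditions. GSTO1 had 256.6 and 137.4 CPM in control libraries 1 and 2 and 362.5 and 163.1 CPM in STAT6 siRNA libraries 1 and 2 (log2 fold change 0.42). SULT1C4 had 75.9 and 134.5 CPM against 42.8 and 108.3 CPM (log2 fold change -0.48). For both genes the libraries of either condition lay further apart than the means of the conditions. Between libraries of the same number, GSTO1 was higher with STAT6 siRNA in both (log2 differences 0.50 and 0.25) and SULT1C4 lower in both (-0.82 and -0.31).

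Apart from GSTT2, the 9 enzymes that rose in SOX4-/- cells overlapped between the siRNA conditions. UGT2B15 had 1.41 and 3.91 CPM in control and 0.808 and 3.26 CPM in STAT6 siRNA cells (log2 fold change -0.37), and UGT2B4 had 3.79 and 10.0 against 3.82 and 11.3 CPM (0.14). GSTM3 had 81.2 and 55.1 against 106.2 and 67.8 CPM (0.35). Of the genes on the study's list, SULT1A1 had 109.7 and 53.8 against 124.9 and 53.8 CPM (0.13) and UGT1A1 had 10.5 and 11.9 against 9.48 and 13.5 CPM (0.04). SULT2A1 had 27.7 and 41.1 against 25.9 and 57.8 CPM (0.28). None of the lists of co-substrate, hydrolysis, other conjugation, regulator, export or hepatocyte genes had a call. UGDH, for example, had 102.0 and 214.4 against 63.3 and 154.2 CPM.

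Whether the enzymes differed in the same way between the libraries labelled SOX4 knockout and Hep3B as between STAT6 and control siRNA was tested by fitting the 8 libraries together and contrasting both effects. Of 30 enzymes 1 was called, against 0.0769% of 14313 genes. UGT2B15 differed by 6.43 on the log2 scale (SE 1.10, adjusted p = 0.0485), beside log2 fold changes of 6.16 in SOX4-/- and -0.37 in STAT6 siRNA cells in the separate fits of the tables. The call was lost without Hep3B library 1 or 2 (difference 6.53 and 6.34, adjusted p = 0.147 and 0.277), without SOX4-/- library 1 or 2 (5.43 and 7.02, adjusted p = 0.260 and 0.0663) and with a minimum of 10 counts in all libraries (6.46, adjusted p = 0.111). Unadjusted, 7 enzymes had a p below 0.05, against 939 of all genes. The next after UGT2B15 were GSTT2B (difference 4.26, SE 0.95, adjusted p = 0.113) and UGT2A3 (3.95, SE 1.04, adjusted p = 0.211), which edgeR did not call with the libraries complete. DESeq2 called GSTT2B, UGT2A3 and SULT1E1 as well, with 1.17% of all genes called. Without control siRNA library 1 edgeR called UGT2A3, and without control siRNA library 2 it called GSTT2B. Both of these fits called a larger share of all genes than the main fit.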

How the data were processed

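The authors deposited unscaled estimated counts for RefSeq transcripts, in one table per comparison. The submitters' processing notes name STAR, Partek and hg38. Versions, the quantifier and the use of strand are not given in the sources used here. Every transcript listed summed to at least 10.0 over the 4 libraries of its table, and 0 value columns were left without a library.

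Transcripts were summed by gene symbol and the sums rounded, since the planned design assumed counts. Each table was fitted separately with edgeR 4.0.16 under R 4.3.3 (TMM factors, filterByExpr, glmQLFit, glmQLFTest), with Benjamini-Hochberg adjustment over all genes and a threshold of 0.05. TPM used GENCODE release 29 lengths, available for 98.5% of genes in each table. Alternatives used DESeq2 1.42.0, other scalings and filters, a library number block, GC and length offsets (mgcv 1.9.3), summed paralogs and each library left out. The steps were tested on simulated data, with 100 changed genes of each size. A true log2 change of 1 was recovered in 1.00% for the SOX4-/- comparison, 0.00% for siRNA and 0.00% for the difference. A change of 3 was recovered in 78.0%, 49.0% and 11.0%. In the same order 13, 2 and 0 unchanged genes were called.

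The members, lists and rules were chosen with earlier results of these data known. Genes named are the members called, in each comparison the 5 largest rises and falls with a mean of at least 100 counts, the most abundant member of each class, the study's listed genes, and SOX4 and STAT6. ENAM, ODAM, FDCSP, other chromosome 4 neighbours, and other members and list genes were named after their values were seen. A gene from the list of other conjugations is not reported here by name.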

Additional observations from a re-analysis of the deposited data

How the results depend on the processing

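In the SOX4-/- comparison 9 enzymes were called, and the count stayed between 7 and 13 under median-of-ratios or upper-quartile factors, without a filter, with a minimum of 10 counts in all libraries, DESeq2 (13), either setting of glmQLFit's legacy argument and a fit of all 8 libraries. Summing paralog families gave 5, GC and length offsets with the library number as a block gave 2 (UGT2B15 and UGT2A3), and leaving out each library gave 1 to 13. The cause was not tested, apart from the fewer units of the summed fit. Over all genes 849 calls became 2160 with DESeq2, 518 with at least 10 counts, 438 with all 8 libraries, 42 with offsets and block, and 21 to 2298 without a library. In the siRNA comparison 0 enzymes were called under all alternatives except the offsets with block, which called 3: GSTM3 (0.41, adjusted p = 0.0294), GSTO1 (0.39, adjusted p = 0.0370) and SULT1C4 (-0.38, adjusted p = 0.0435), against 2.64% of 13409 genes. For the difference 1 enzyme was called among 11 genes, 0 among 1 with at least 10 counts, 4 among 167 with DESeq2 (GSTT2B, SULT1E1 and UGT2A3 added) and 0 to 2 among 0 to 127 without a library.

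Among values of single genes, 12 in the SOX4-/- and 17 in the siRNA comparison turned direction, among the latter those of GSTO1 and GSTM3, which were called in the SOX4-/- comparison. GSTZ1 in SOX4-/- cells had a log2 fold change of -0.02 with median-of-ratios factors, -0.02 with DESeq2, -0.31 with offsets and block and -0.04 with all 8 libraries. Without a library it ran from -0.53 to 0.77, MGST1 from -0.33 to 0.82, SULT2A1 from -0.70 to 2.48, UGT8 from -0.38 to 0.87 and SULT1A2 from -0.63 to 0.84. In the siRNA comparison the values without a library ran from -0.21 to 1.19 for GSTZ1, -0.27 to 1.01 for GSTO1, -0.01 to 0.73 for GSTM3, -0.42 to 0.75 for SULT2A1, -0.78 to 1.07 for SULT1A2, -1.30 to 0.04 for SULT1C4, -0.85 to 0.65 for SULT1A3 and SULT1A4, -0.47 to 0.05 for GSTA4, -0.72 to 0.13 for UGT1A6, -0.60 to 0.81 for SULT1A1 and -0.24 to 0.27 for UGT1A1. With offsets and block SULT1A2 was at -0.00 and SULT1A1 at -0.08. Members of summed paralog groups have no value of their own in that setting.

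The libraries share only a number, since no label says what it marks. Deviations of same-numbered libraries correlated across genes at -0.08 in the SOX4-/- table and 0.87 in the siRNA table, over 2 pairs each. With the number as a replicate block 9 enzymes were called in the SOX4-/- comparison and 0 in the siRNA comparison, where the calls over all genes went from 0 to 62. SULT1A2 in SOX4-/- cells then turned to 0.12.

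Groups of 2 libraries allow no outlier test. Low counts limit UGT2B10, UGT2B17, SULT2B1 and, with siRNA, UGT2B11, and shared sequence limits the UGT1A, SULT1A3 with SULT1A4, and GSTT2 with GSTT2B values.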

Other observations

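The transcripts of GSTM4, a mu class enzyme, differed in their shares between Hep3B and SOX4-/- cells. One coding transcript held 54.0% and 60.4% of the GSTM4 counts in Hep3B and 78.0% and 87.9% in SOX4-/- cells, and a second coding transcript held 35.6% and 21.1% against 17.5% and 8.87%. In the siRNA table the first held 79.7% and 79.9% with control and 84.2% and 83.1% with STAT6 siRNA. These shares were looked at after the gene's level, with no test, and the estimate divides reads between transcripts that overlap.

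STAT6 itself was lower in SOX4-/- cells than in Hep3B, with 2.76 and 2.20 against 32.0 and 13.2 CPM (log2 fold change -3.18, SE 0.57, adjusted p = 0.0275, edgeR). Across genes, the Spearman correlation of GC content with the difference of library 2 from library 1 was -0.75 with control siRNA and -0.82 with STAT6 siRNA, against -0.09 in Hep3B and 0.28 in SOX4-/- cells. Genes are not independent replicates, and each value describes a single pair of libraries.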
